A study of Mus musculus with 11 samples.

Results

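Tnf, Lta and Ltb encode the cytokines TNF, lymphotoxin alpha and lymphotoxin beta and lie side by side in the mouse genome, and Tnfrsf1a, Tnfrsf1b and Ltbr encode their receptors. These 6 genes were chosen by name from the 18193 genes with a probe set of 1 symbol on an Affymetrix oligonucleotide array. They had 7 such probe sets, 2 of them for Tnfrsf1b, and all 6 genes were among the 14795 genes tested. RNA came from CD8+ T cells of pmel-1 mice, which carry a transgenic T cell receptor for a peptide of the melanocyte protein gp100, in 3 independent experiments. Cells enriched as naive (CD44-) or as central memory (CD44+) were activated on plate-bound CD3 and CD28 antibodies, then given peptide-pulsed allogeneic feeder cells, over 2 weeks in interleukin 2. The 4 groups of effectors were naive-derived stimulated (3 arrays), naive-derived unstimulated (2 arrays, experiments 1 and 2), memory-derived stimulated (3 arrays) and memory-derived unstimulated (3 arrays). Stimulated cells had CD3 and CD28 ligation for the last 4 h before lysis, and unstimulated cells had none. All groups thus share 1 transgenic receptor and both earlier activations, the origins are defined by enrichment on CD44 alone, and the sources used here give no age, sex or number of mice.

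TNF and the lymphotoxins are trimeric ligands made by activated lymphocytes. Soluble TNF and the lymphotoxin alpha homotrimer bind both TNF receptors, whereas lymphotoxin beta anchors lymphotoxin alpha at the membrane in a heterotrimer that binds the lymphotoxin beta receptor. TNF receptor 1 signals through TRADD to NF-kappaB or to cell death, TNF receptor 2 recruits TRAF proteins and acts as a costimulator of T cells, and the lymphotoxin beta receptor is known mainly from stromal and myeloid cells, where it drives the non-canonical NF-kappaB pathway.

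Values are log2 probe set values, converted from a deposited scale taken to be log10, so each fold below holds on that scale. A gene was tested where it exceeded 1.54, the 40th percentile of an array, on at least 2 arrays. The CD8 T cell markers Cd8a, Cd8b1, Cd3d, Cd3e, Cd3g and Thy1 were above that level on all 11 arrays. Of 3 markers of CD4 and regulatory T cells, Cd4 was below it on all 11 arrays. Foxp3 was above it on 1 of 3 arrays of each memory-derived group and 2 of 2 naive-derived unstimulated arrays (at up to 1.74). Cd40lg was above it on all naive-derived, 2 of 3 memory-derived stimulated and 1 of 3 memory-derived unstimulated arrays (at up to 2.94). Of the 4 B cell markers on the array, Cd79a and Ms4a1 were below 1.54 on all 11 arrays. Pax5 was above it on 1 of 3 memory-derived unstimulated arrays and on all arrays of the other groups (at up to 2.56). Cd79b was above it on all unstimulated arrays, 1 of 3 naive-derived stimulated arrays and no memory-derived stimulated array (at up to 1.98). The summed level of the 4 markers was 3.36 to 3.76. That of 3 dendritic markers was 3.44 to 4.46, with Zbtb46 above 1.54 on all 11 arrays. The summed level of 6 myeloid markers was 4.76 to 5.21 and 4.94 to 5.07 on naive-derived stimulated and unstimulated arrays, against 5.56 to 5.73 and 5.76 to 6.04 on memory-derived stimulated and unstimulated arrays. The naive-derived unstimulated arrays lay on the side of the stimulated arrays: on the first principal component (56.5% of the variance) naive-derived stimulated arrays scored -37.5 to -29.7, naive-derived unstimulated -16.7 and -16.2, memory-derived stimulated -14.6 to -11.6 and memory-derived unstimulated 40.3 to 77.4. The interleukin 2 gene Il2, an early target of T cell receptor signalling, stood at 12.6 to 14.6 on naive-derived stimulated, 11.04 to 12.18 on naive-derived unstimulated, 10.1 to 11.5 on memory-derived stimulated and 2.32 to 4.96 on memory-derived unstimulated arrays. The 3' minus 5' actin signal, a measure of RNA integrity and labelling, was 1.93 to 2.60 on naive-derived stimulated, 1.54 to 1.59 on naive-derived unstimulated, 1.43 to 1.73 on memory-derived stimulated and 0.875 to 1.17 on memory-derived unstimulated arrays. The myeloid sum thus moved with origin and, in memory-derived cells, with stimulation. The actin signal moved with origin and, in naive-derived as in memory-derived cells, with stimulation. The part of the myeloid sum and the actin signal in the results was not tested. Unstimulated is the labels' term: whether the naive-derived cells so labelled were at rest was not tested, and this bears on each comparison below that uses them. In bulk RNA, fewer cells expressing a gene and less RNA per cell cannot be told apart.

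The RefSeq gene table (GRCm38.p6) places Ltb, Tnf and Lta next to each other on chromosome 17, with Lst1 beyond Ltb and Nfkbil1 beyond Lta. Tnf and Lta are read from the minus strand and Ltb from the plus strand. Because Tnf and Ltb differed in opposite directions below, the RefSeq promoter windows of the 3 neighbours (250 bases before to 50 bases after each start, 5' to 3' in the direction of transcription) are shown for comparison, with matches to the searched motifs in capitals. They lie at chr17:35201958-35202257 on the minus strand for Tnf, chr17:35205302-35205601 on the minus strand for Lta and chr17:35194257-35194556 on the plus strand for Ltb.
Tnf: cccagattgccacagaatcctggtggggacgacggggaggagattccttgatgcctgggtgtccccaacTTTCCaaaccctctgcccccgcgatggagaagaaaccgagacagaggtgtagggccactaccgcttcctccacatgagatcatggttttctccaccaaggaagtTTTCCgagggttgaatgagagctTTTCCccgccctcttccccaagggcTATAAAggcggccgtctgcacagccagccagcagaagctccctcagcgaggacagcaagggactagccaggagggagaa
Lta: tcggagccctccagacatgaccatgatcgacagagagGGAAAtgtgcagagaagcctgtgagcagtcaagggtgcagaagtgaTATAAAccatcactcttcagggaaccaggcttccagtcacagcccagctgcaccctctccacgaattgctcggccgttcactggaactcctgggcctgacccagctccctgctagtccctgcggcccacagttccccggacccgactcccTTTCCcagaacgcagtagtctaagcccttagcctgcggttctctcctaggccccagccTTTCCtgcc
Ltb: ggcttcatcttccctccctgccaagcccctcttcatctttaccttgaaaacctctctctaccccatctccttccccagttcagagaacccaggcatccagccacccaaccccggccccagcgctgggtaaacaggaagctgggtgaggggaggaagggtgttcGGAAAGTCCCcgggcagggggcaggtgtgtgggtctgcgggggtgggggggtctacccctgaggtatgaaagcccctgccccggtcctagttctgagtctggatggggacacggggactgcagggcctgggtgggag
The motifs, searched on both strands, were GGAAA (the core bound by NFAT, read as TTTCC on the other strand), the AP-1 motif TGANTCA, the TATA motif TATAAA and the NF-kappaB consensus by name. The windows of Tnf and Lta each held 3 matches to GGAAA and 1 to TATAAA, whose first base was at -29 from the start in Tnf and at -167 in Lta. The window of Ltb held 1 match to GGAAA, which overlapped its 1 match to the NF-kappaB consensus, and none to TATAAA. None of the 3 windows matched TGANTCA, and those of Tnf and Lta did not match the NF-kappaB consensus as searched. Of 32851 RefSeq windows of this length, 61.3% held GGAAA, 7.81% TGANTCA, 13.6% TATAAA and 6.93% the NF-kappaB consensus, so the matches are a description of letters and not of binding.

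Tnf was high in 3 of the 4 groups and low in memory-derived unstimulated cells. Its values in experiments 1, 2 and 3 were 9.84, 9.44 and 10.50 on naive-derived stimulated arrays, 9.06 and 7.93 (experiments 1 and 2) on naive-derived unstimulated arrays, 9.51, 9.83 and 10.23 on memory-derived stimulated arrays, and 5.66, 6.06 and 5.23 on memory-derived unstimulated arrays. The 2 stimulated groups overlapped, with means of 9.93 ± 0.534 in naive-derived (SD, n = 3) and 9.86 ± 0.356 in memory-derived cells (SD, n = 3). The naive-derived unstimulated arrays (8.49 ± 0.799, SD, n = 2) lay below every stimulated array and above every memory-derived unstimulated array (5.65 ± 0.417, SD, n = 3).

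Ltb ran the other way, and its 4 groups did not overlap. It stood at 5.99, 6.92 and 6.92 on naive-derived stimulated arrays, 7.19 and 7.98 on naive-derived unstimulated arrays, 5.35, 5.61 and 5.86 on memory-derived stimulated arrays, and 9.51, 9.55 and 9.55 on memory-derived unstimulated arrays. The order, from the highest mean, was memory-derived unstimulated (9.54 ± 0.0231, SD, n = 3), naive-derived unstimulated (7.59 ± 0.556, SD, n = 2), naive-derived stimulated (6.61 ± 0.536, SD, n = 3) and memory-derived stimulated (5.61 ± 0.253, SD, n = 3). The group highest in Ltb was thus the group lowest in Tnf.

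Lta, which lies next to Tnf, varied less between groups and more within one of them. It stood at 6.88, 7.69 and 7.53 on naive-derived stimulated arrays, 7.82 and 8.33 on naive-derived unstimulated arrays, 6.86, 7.11 and 7.19 on memory-derived stimulated arrays, and 5.92, 7.84 and 4.85 on memory-derived unstimulated arrays. The naive-derived unstimulated mean was the highest (8.07 ± 0.358, SD, n = 2), above that of naive-derived stimulated (7.37 ± 0.428, SD, n = 3) and memory-derived stimulated cells (7.05 ± 0.169, SD, n = 3), which overlapped. The memory-derived unstimulated mean was the lowest (6.20 ± 1.51, SD, n = 3), but its array of experiment 2 lay above every memory-derived stimulated array.

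The receptors moved little. Tnfrsf1a, the death-domain receptor, stood at 3.68, 4.22 and 4.28 on naive-derived stimulated arrays, 4.25 and 4.11 on naive-derived unstimulated arrays, 4.32, 4.29 and 4.15 on memory-derived stimulated arrays, and 4.38, 4.22 and 4.18 on memory-derived unstimulated arrays, and all 4 groups overlapped. Tnfrsf1b, the receptor without a death domain, stood at 4.70, 4.92 and 4.76 on naive-derived stimulated arrays, 5.32 and 4.97 on naive-derived unstimulated arrays, 5.02 on each memory-derived stimulated array, and 5.49, 5.44 and 5.75 on memory-derived unstimulated arrays. The memory-derived unstimulated arrays were the highest for Tnfrsf1b and the naive-derived stimulated arrays the lowest, with the other groups between them and overlapping. Ltbr lay close to the filter level, at 1.79, 2.56 and 2.42 on naive-derived stimulated arrays, 2.00 and 1.85 on naive-derived unstimulated arrays, 2.14, 1.49 and 1.77 on memory-derived stimulated arrays, and 2.27, 2.04 and 2.17 on memory-derived unstimulated arrays, with 1 array below 1.54.

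**Figure D1:**
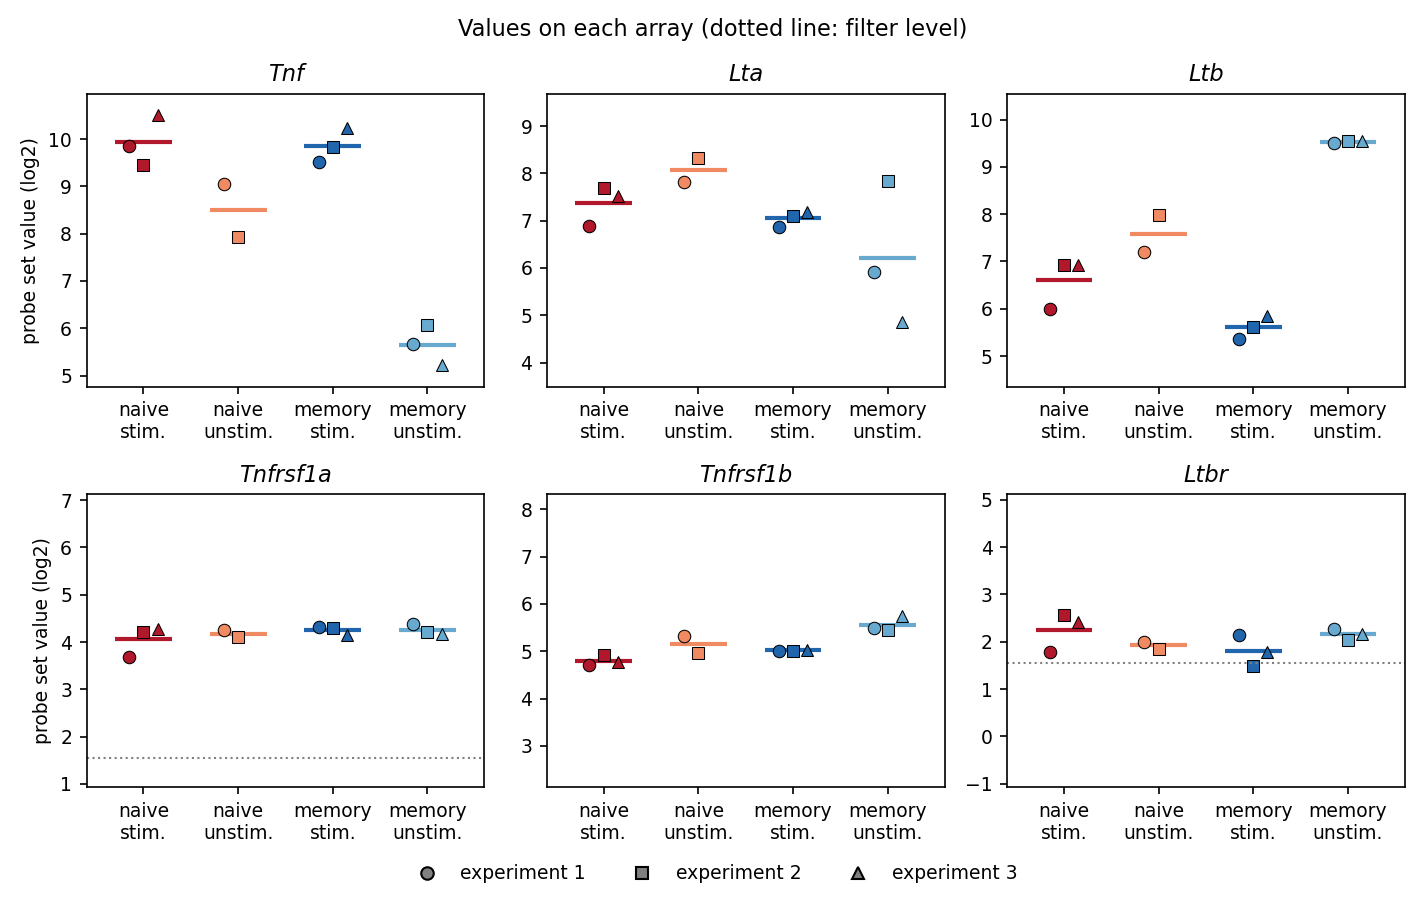
Log2 probe set value (y axis) of each of the 6 genes on each array, by group (x axis), with circles, squares and triangles for experiments 1, 2 and 3 and a line at the group mean; every panel spans the same number of log2 units. Tnf was lowest (5.23 to 6.06) and Ltb highest (9.51 to 9.55) on the memory-derived unstimulated arrays, and the receptors stayed within narrow ranges.

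Stimulation of memory-derived cells raised Tnf and lowered Ltb. Tnfrsf1b was lower by the probe set used here, which the gene's other probe set did not show. Tnf was 4.20 log2 units higher in stimulated than in unstimulated memory-derived cells (SE 0.348, 95% interval 3.44 to 4.97, limma adjusted p = 4.38e-05), which is 18.4-fold and the 8th largest increase of the 14795 genes tested. Ltb fell by 3.93 (SE 0.268, 95% interval -4.52 to -3.34, limma adjusted p = 2.08e-05), which is 15.3-fold lower in stimulated cells and the largest decrease of all genes tested, a rank it held under each of 21 alternative settings. Within experiments 1, 2 and 3 the difference was 3.85, 3.76 and 5.00 for Tnf and -4.16, -3.94 and -3.69 for Ltb, so 3 of 3 experiments had each direction. Among all genes tested 14.3% rose and 17.3% fell in this comparison, against 1 and 2 of these 6 genes.

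Tnfrsf1b fell by 0.54 with stimulation of memory-derived cells (SE 0.136, 95% interval -0.84 to -0.24, limma adjusted p = 0.0113), a 1.46-fold change. Its other probe set, lower in signal, did not show this: it stood at 3.80, 3.78 and 3.89 on memory-derived stimulated arrays and at 3.97, 3.95 and 3.66 on memory-derived unstimulated arrays. In a fit over all 27046 probe sets above the filter, added after the data were seen, that probe set differed by -0.04 (SE 0.128, adjusted p = 0.862) and the one used by -0.54 (adjusted p = 0.0137). With the mean of both probe sets the difference was -0.29 (adjusted p = 0.0474). The 2 probe sets of Tnfrsf1b thus disagree, and which transcripts each reads was not analysed here.

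Lta differed by 0.85 in stimulated over unstimulated memory-derived cells (SE 0.570, 95% interval -0.41 to 2.11, adjusted p = 0.298). Within experiments 1, 2 and 3 the difference was 0.947, -0.732 and 2.34, so the experiments did not share a direction. Without the memory-derived unstimulated array of experiment 2, Lta was 1.67 higher in stimulated cells (adjusted p = 0.0041), the only setting of 21 in which it passed. Tnfrsf1a differed by -0.0035 (95% interval -0.36 to 0.35, adjusted p = 0.991) and Ltbr by -0.36 (95% interval -0.83 to 0.11, adjusted p = 0.239), and neither passed.

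In naive-derived cells none of the 6 genes passed the threshold upon stimulation, where 0.0135% of all genes (2 of 14795) did in limma and 1252 genes had an unadjusted p below 0.05. Tnf was 1.44 higher in stimulated than in unstimulated naive-derived cells (95% interval 0.58 to 2.30, adjusted p = 0.328), the 4th largest difference of all genes tested (3rd to 169th over 21 alternatives), and 0.787 and 1.52 higher within experiments 1 and 2. Ltb differed by -0.98 (95% interval -1.64 to -0.32, adjusted p = 0.408), with -1.20 and -1.06 within experiments 1 and 2. Without the naive-derived unstimulated array of experiment 2 these differences were 0.872 for Tnf and -0.58 for Ltb. The intervals of Tnf and Ltb over all arrays did not include 0, but neither passed after adjustment over all genes.

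The other 4 genes differed less upon stimulation of naive-derived cells. Lta differed by -0.71 (95% interval -2.11 to 0.70, adjusted p = 0.836), the opposite sign to memory-derived cells, and Tnfrsf1b by -0.35 (95% interval -0.69 to -0.015, adjusted p = 0.586). Tnfrsf1a differed by -0.12 (adjusted p = 0.910) and Ltbr by 0.33 (adjusted p = 0.778).

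The difference between the origins in their response was itself tested, as the stimulation difference in naive-derived cells minus that in memory-derived cells. Ltb had the largest positive value of all genes tested (1st to 3rd over 20 alternatives), 2.95 (SE 0.402, 95% interval 2.07 to 3.84, limma adjusted p = 0.0166): its difference upon stimulation was -0.98 in naive-derived and -3.93 in memory-derived cells. Tnf had -2.77 (SE 0.522, 95% interval -3.92 to -1.62, limma adjusted p = 0.0301), with stimulation differences of 1.44 in naive-derived and 4.20 in memory-derived cells. Positive values past the threshold were found for 1.62% of all genes and negative ones for 1.09%, against 1 of these 6 genes in each direction. The call for Ltb was lost with experiments 1 and 2 only (2.92, adjusted p = 0.0591) and with a block for experiment within each origin (2.80, adjusted p = 0.0600). In limma 49 and 0 of all genes passed there. The call was also lost without the naive-derived unstimulated array of experiment 1 (2.56), a fit that leaves 1 array in that group. It was kept with the experiment as a block, where 26 of all genes passed.

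The call for Tnf was less stable. With the experiment as a block the value was -2.85 (adjusted p = 0.0659), in a limma fit that called 26 of all genes. Without the naive-derived unstimulated array of experiment 1, which leaves 1 array in that group, it was -2.20. It passed in 9 of 20 alternatives, and it was lost in 8 of the 11 fits that left out 1 array. Lta had -1.56 (95% interval -3.44 to 0.33, adjusted p = 0.300), and -2.37 (adjusted p = 0.0189) without the memory-derived unstimulated array of experiment 2. No receptor passed: Ltbr had 0.69 (95% interval -0.016 to 1.40, adjusted p = 0.224), Tnfrsf1b 0.19 (adjusted p = 0.615) and Tnfrsf1a -0.12 (adjusted p = 0.817).

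**Figure D2:**
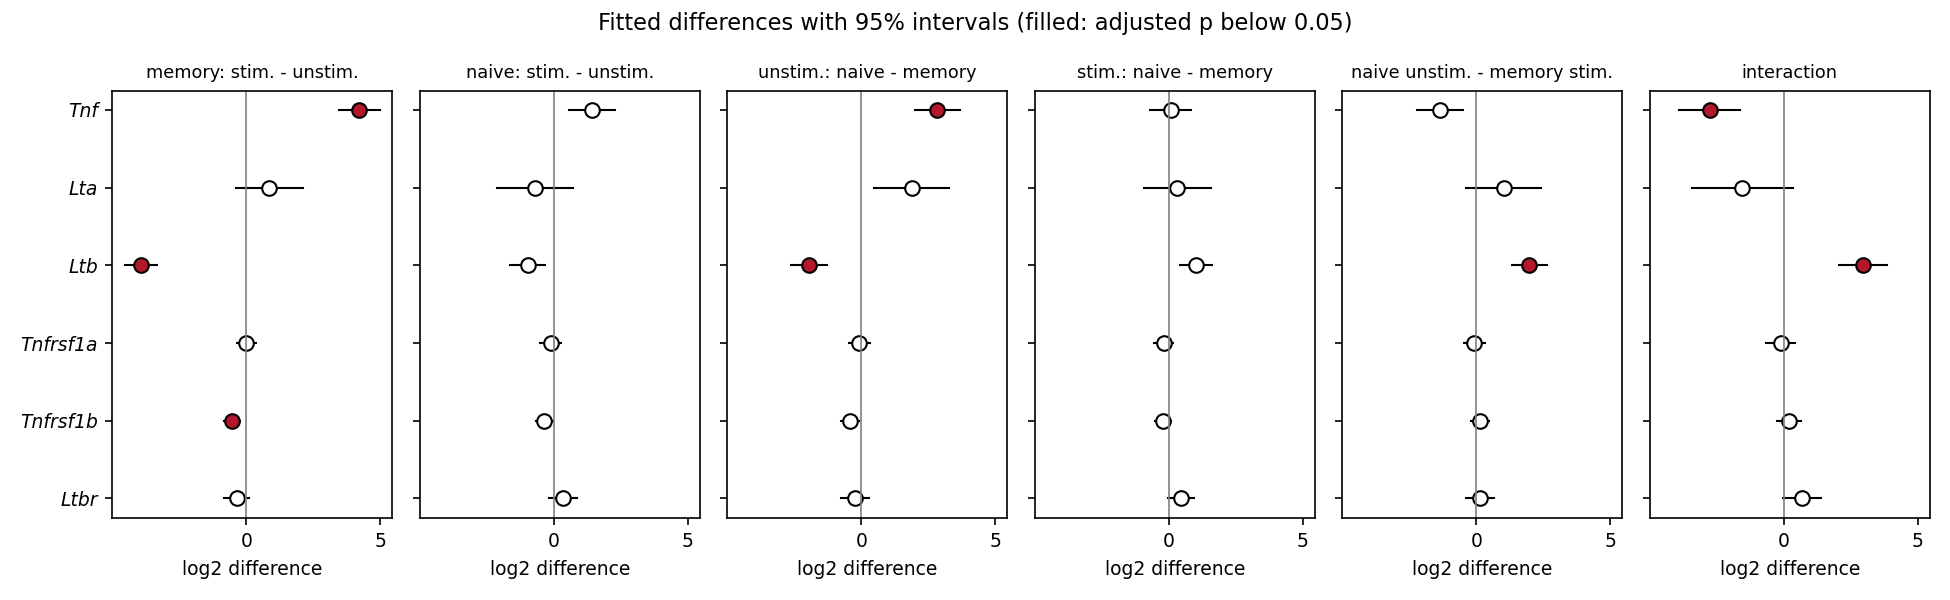
Fitted log2 difference (x axis) with its 95% interval for the 6 genes (rows) in 6 comparisons, filled where the limma adjusted p was below 0.05; the interaction is the difference upon stimulation in naive-derived minus that in memory-derived cells. Tnf and Ltb took opposite sides of 0 in 5 of the panels. The receptors ran from -0.54 to 0.69, and only Tnfrsf1b passed, at -0.54 upon stimulation of memory-derived cells.

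Between the groups labelled unstimulated, the origins differed in both genes. Tnf was 2.84 higher in naive-derived than in memory-derived unstimulated cells (SE 0.389, 95% interval 1.98 to 3.70, limma adjusted p = 0.000739), which is 7.16-fold, and by 3.39 and 1.86 within experiments 1 and 2. Ltb fell by 1.95 in naive-derived relative to memory-derived unstimulated cells (SE 0.300, 95% interval -2.61 to -1.29, limma adjusted p = 0.00134), which is 3.86-fold lower, and by 2.32 and 1.57 within experiments 1 and 2. Both passed in each of 20 alternatives, and 10.9% of all genes were higher and 14.9% lower. This comparison shares its memory-derived unstimulated arrays with the stimulation comparison above.

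Lta had a difference of 1.87 between naive-derived and memory-derived unstimulated cells, just outside the threshold (SE 0.637, 95% interval 0.47 to 3.28, adjusted p = 0.0522). Within experiments 1 and 2 it was 1.90 and 0.488. It passed in 4 of 20 alternatives, among them the fit without the memory-derived unstimulated array of experiment 2 (2.69, adjusted p = 0.000868). Tnfrsf1b differed by -0.42 (95% interval -0.75 to -0.08, adjusted p = 0.0678), whereas its other probe set differed by 0.15 (adjusted p = 0.496). Tnfrsf1a (-0.079, adjusted p = 0.796) and Ltbr (-0.23, adjusted p = 0.526) did not pass.

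After stimulation none of the 6 genes passed between naive-derived and memory-derived cells, where limma called 3.7% of all genes in either direction. Tnf differed by 0.07 (95% interval -0.69 to 0.84, adjusted p = 0.947), an interval that allows differences of either sign. Ltb differed by 1.00 (SE 0.268, 95% interval 0.41 to 1.60, adjusted p = 0.0697), or 2.01-fold, and was higher in naive-derived cells in 3 of 3 experiments, by 0.639, 1.31 and 1.07. It passed with the experiment as a block (adjusted p = 0.0264) and without the naive-derived stimulated array of experiment 1 (1.31, adjusted p = 0.0130). Lta differed by 0.32 (95% interval -0.94 to 1.57, adjusted p = 0.842), and Tnfrsf1a (-0.20, adjusted p = 0.611), Tnfrsf1b (-0.22, adjusted p = 0.466) and Ltbr (0.46, adjusted p = 0.321) did not pass.

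**Figure D3:**
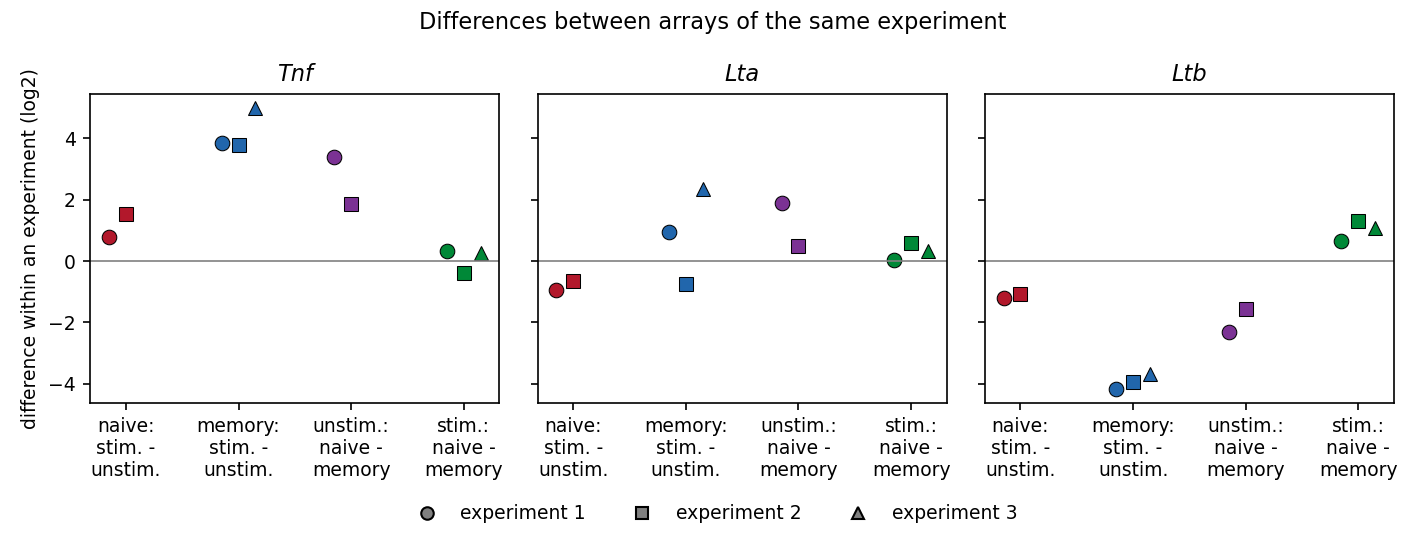
Difference in log2 value (y axis) between arrays of the same experiment for Tnf, Lta and Ltb in 4 comparisons (x axis), with circles, squares and triangles for experiments 1, 2 and 3. Tnf and Ltb kept 1 direction in every experiment upon stimulation of either origin, and Lta changed direction between experiments in memory-derived cells.

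Since the naive-derived unstimulated arrays lay with the stimulated ones, they were also set against memory-derived stimulated cells. Ltb was 1.98 higher in naive-derived unstimulated than in memory-derived stimulated cells (SE 0.300, 95% interval 1.32 to 2.64, limma adjusted p = 0.00676), or 3.95-fold, in a comparison where 0.98% of all genes were higher and 1 of these 6 was. Without the naive-derived unstimulated array of experiment 2 it no longer passed (1.59, adjusted p = 0.0953). Tnf differed by -1.36 (95% interval -2.22 to -0.51, adjusted p = 0.134), passing in 2 of 20 alternatives, and the other 4 genes did not pass. The values of Tnf, Lta and Ltb did not overlap between these groups, and those of the receptors did. The groups hold only 2 and 3 arrays, and the share of all genes without overlap was not counted, so this sets no ligand apart from other genes. On the first principal component they lay close together.

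Genes around the ligands and receptors were read from 7 lists, chosen with earlier results of these data known. Of 20 genes of the receptor complex 18 were tested (Traf3 and Ripk1 had no probe set of 1 symbol here), and 4 rose and 8 fell with stimulation of memory-derived cells, against 14.3% and 17.3% of all genes tested, with a median of -0.31 against 0.0025 over all genes tested. The increases were led by Cflar, an inhibitor of caspase 8 at the death receptor (2.43, adjusted p = 7.08e-05), and Tnfaip3, a ubiquitin-editing brake on NF-kappaB (1.34, adjusted p = 0.00308). The decreases were led by Cyld, a deubiquitinase (-0.99, adjusted p = 0.00141), and Tradd, the adaptor of TNF receptor 1 (-0.86, adjusted p = 0.00104). Between naive-derived and memory-derived unstimulated cells 3 of the 18 were higher and 4 lower, against 10.9% and 14.9% of all genes, led by Cflar (2.19), Tnfaip3 (1.20), Cyld (-0.93) and Tradd (-0.82), for which memory-derived unstimulated arrays are again shared. Without the naive-derived unstimulated array of experiment 1, fewer of the 18 were higher. That fit leaves 1 array in the group and called fewer of all genes as well.

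Of 9 tested genes of the NF-kappaB module, 2 rose and 2 fell with stimulation of memory-derived cells (median 0.26), close to the 14.3% and 17.3% of all genes for so few genes. Rel, the c-Rel subunit used by activated lymphocytes, rose by 2.40 (adjusted p = 0.000151) and the inhibitor gene Nfkbib rose by 1.99 (adjusted p = 0.000297), whereas the inhibitor gene Nfkbie fell by 1.33 (adjusted p = 0.00379) and the kinase gene Ikbkb fell by 0.48 (adjusted p = 0.0121). Between naive-derived and memory-derived unstimulated cells Rel (2.08) and Nfkbib (1.40) were higher and Ikbkg (-0.49) was lower, against 10.9% and 14.9% of all genes. Their limma adjusted p were 0.000661, 0.00416 and 0.0288. The call for Ikbkg was lost in 4 of the 11 fits that left out 1 array, those without the naive-derived unstimulated array of experiment 1 or 2 or the memory-derived unstimulated array of experiment 1 or 3. In the test of the difference between origins, Nfkbib (-1.73), Rel (-1.70), Cflar (-1.57) and Traf5 (-1.38), a TRAF adaptor, passed with the sign of Tnf (adjusted p of 0.0401, 0.0434, 0.0411 and 0.0278), where 1.09% of all genes did. None of these 4 passed with the experiment as a block, across or within origins. Those limma fits called 26 and 0 of all genes, and gave 3080 and 3499 genes an unadjusted p below 0.05. As no gene passed within origins, the loss there is not particular to these 4. When 1 array was left out, the count of the NF-kappaB module dropped to 0 or 1 in 9 of 11 fits and that of the receptor complex to 0 in 7 of 11.

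Among 7 genes of shedding and cleavage, Rhbdf2, which brings the TNF sheddase to the cell surface, rose by 1.26 with stimulation of memory-derived cells (limma adjusted p = 0.000756). No other passed, where 14.3% of all genes rose and 17.3% fell. Between naive-derived and memory-derived unstimulated cells Rhbdf2 (1.44, adjusted p = 0.000972) and the protease gene Adam10 (0.76, adjusted p = 0.0102) were higher. They did not both pass without the naive-derived unstimulated array of experiment 1. That fit leaves 1 array in the group and called fewer of all genes as well. After stimulation Adam10 was again higher in naive-derived than in memory-derived cells (0.68, adjusted p = 0.0403), a call lost in 9 of the 11 fits that left out 1 array. In the test of the difference between origins Rhbdf2 passed (-1.31, adjusted p = 0.0411), but with neither block and in only 1 of the 11 fits that left out 1 array. The fits with a block across and within origins called 26 and 0 of all genes. The sheddase gene Adam17 passed in none of the 6 comparisons. Of all genes 10.9% were higher in naive-derived than in memory-derived unstimulated cells. Between stimulated origins 3.7% passed in either direction, and in the test of the difference between origins 1.09% passed with a negative value.

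Of 12 genes that control Tnf mRNA, 4 rose and 3 fell with stimulation of memory-derived cells (median 0.26), against 14.3% and 17.3% of all genes. Zc3h12a (1.14, adjusted p = 0.00155) and Rc3h1 (0.84, adjusted p = 0.00139), which encode the mRNA-degrading proteins Regnase and Roquin, led the increases, and Zfp36l2 (-2.37, adjusted p = 0.000914) and Zfp36 (-0.74, adjusted p = 0.00685), which encode proteins that bind AU-rich elements, led the decreases. Between naive-derived and memory-derived unstimulated cells 4 were higher and 1 lower, against 10.9% and 14.9% of all genes. The increases were led by Zfp36l1 (1.38) and the kinase gene Mapkapk2 (0.77), and Zfp36l2 was lower (-2.23). Without the naive-derived unstimulated array of experiment 1 or of experiment 2, fewer than these 4 were higher. Those fits leave 1 array in the group and called fewer of all genes as well. After stimulation Zfp36l1 was higher in naive-derived than in memory-derived cells (1.03, adjusted p = 0.0225), a call lost in 4 of the 11 fits that left out 1 array.

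Of 12 genes for factors known at the Tnf promoter, 1 rose and 4 fell with stimulation of memory-derived cells (median -0.21), against 14.3% and 17.3% of all genes. Fos was higher (1.03, adjusted p = 0.00923) and Nfatc3 (-1.59, adjusted p = 0.000491) and Ets1 (-1.44, adjusted p = 0.000356) led the decreases. Between naive-derived and memory-derived unstimulated cells Fos (1.81) was higher, and Nfatc3 (-1.57) and Ets1 (-1.19) led 3 decreases, against 10.9% and 14.9% of all genes.

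The LIGHT network covers Tnfsf14, whose product LIGHT also binds the lymphotoxin beta receptor, and genes for proteins that share its other receptor. Tnfsf14 rose by 2.50 with stimulation of memory-derived cells (adjusted p = 0.000349). Tnfrsf14, the gene of that receptor, was below the filter level. The other 3 genes were higher in naive-derived than in memory-derived unstimulated cells, where 10.9% of all genes were. The differences were 2.15 for Tnfsf14, 1.92 for Btla and 1.55 for Cd160 (limma adjusted p of 0.00183, 0.0034 and 0.000338). After stimulation Btla (2.63, limma adjusted p = 0.00116) and Cd160 (1.64, limma adjusted p = 0.000246) were again higher in naive-derived cells, where 3.7% of all genes passed in either direction. Btla (1.96, adjusted p = 0.0182) and Cd160 (1.29, adjusted p = 0.00381) were also higher in naive-derived unstimulated than in memory-derived stimulated cells. The count was 1 without the memory-derived stimulated array of experiment 3, where 172 of all genes passed, against 273 with all arrays. It was also lower without either naive-derived unstimulated array, in fits that leave 1 array in that group. In this last comparison 0.98% of all genes were higher. Btla was above the filter level on 2 of 3 memory-derived stimulated and 1 of 3 memory-derived unstimulated arrays, so its fold rests on low values there.

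Of 16 tested neighbours of the 6 genes on their chromosomes, 0 rose and 6 fell with stimulation of memory-derived cells in limma (median -0.37), against 14.3% and 17.3% of all genes. Lst1, beside Ltb, fell by 0.53 (adjusted p = 0.0342), and Nfkbil1, beside Lta, fell by 0.48 (adjusted p = 0.0483). Ddx39b, further along chromosome 17, fell by 0.42 (adjusted p = 0.0339). The others were Tapbpl (-0.85, adjusted p = 0.000805) and Mrpl51 (-0.39, adjusted p = 0.0191) near Ltbr, and Miip (-0.77, adjusted p = 0.00843), which is 21 genes from Tnfrsf1b. The count of decreases was 2 to 5 over the 11 fits that left out 1 array, so none of these fits kept all 6. It was 3, 2 and 2 without the memory-derived stimulated array of experiment 1, 2 and 3. It was 3 without the memory-derived unstimulated array of experiment 3, the highest on the first principal component. These fits called 3616, 3437, 3761 and 3576 of all genes in either direction, against 4675 with all arrays. Between naive-derived and memory-derived unstimulated cells none of the 16 passed, where 10.9% of all genes were higher and 14.9% lower, with Lst1 at -0.25 (adjusted p = 0.385) and Nfkbil1 at -0.45 (adjusted p = 0.0990), beside differences of 2.84 in Tnf and -1.95 in Ltb. Without the memory-derived unstimulated array of experiment 2, 2 of the 16 were lower, in a fit that called 4161 of all genes against 3819 with all arrays.

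**Figure D4:**
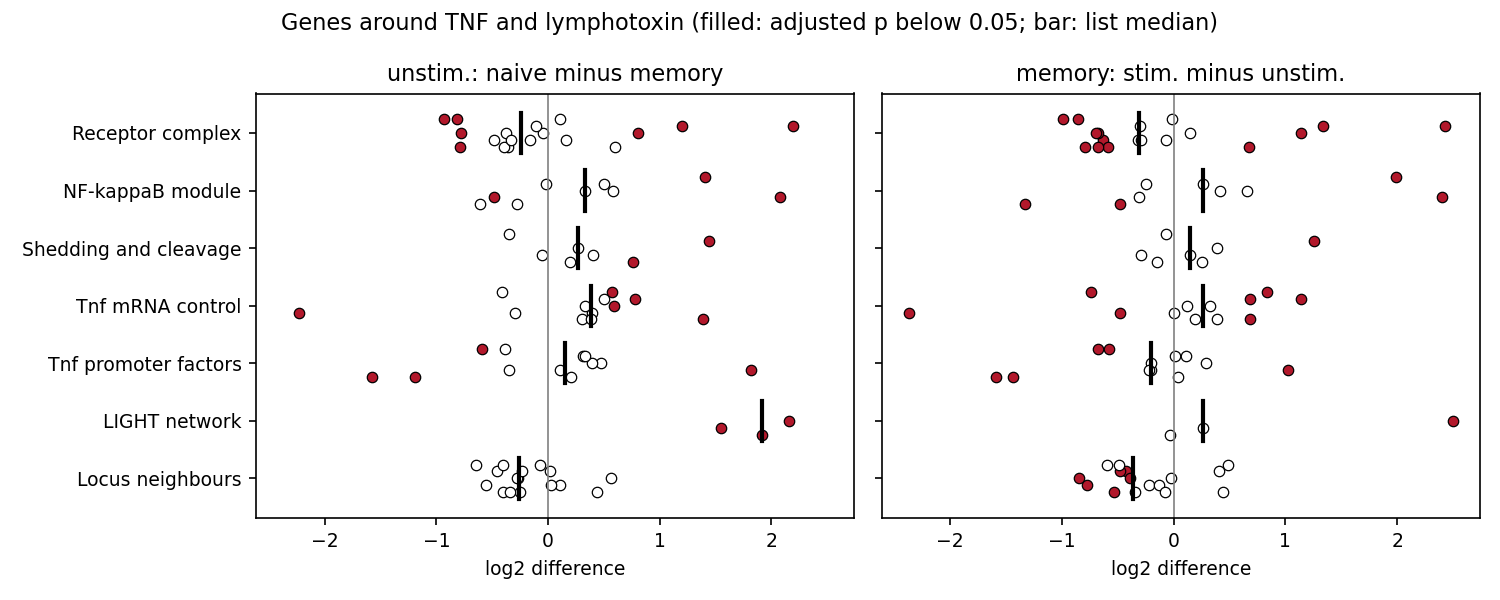
Log2 differences (x axis) of the tested genes of 7 lists (rows) between naive-derived and memory-derived unstimulated cells (left) and between stimulated and unstimulated memory-derived cells (right), filled where the limma adjusted p was below 0.05, with a bar at each list's median. Every list but the LIGHT network held genes on both sides of 0 in the left panel, where that list's median was 1.92.

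No gene of these lists passed upon stimulation of naive-derived cells in limma. Genes most like each member were found by the mean absolute difference of centred log2 values over the 11 arrays. For Tnf they were Nfkbid (0.269), Il23a (0.357) and Cd70 (0.425), against a median of 1.64 over all genes. Nfkbid, which encodes a nuclear NF-kappaB inhibitor protein, differed by 3.77 with stimulation of memory-derived cells and by 1.34 with stimulation of naive-derived cells. For Ltb they were AW112010 (0.479), Ifi209 (0.519) and Ifit1bl1 (0.544), with a median of 1.35, and for Lta they were Mir1949 (0.294), Traf4 (0.354) and Erdr1 (0.360), with a median of 0.756. AW112010 differed by -2.86 with stimulation of memory-derived cells and by -0.59 with stimulation of naive-derived cells. The receptors, whose values moved little, were matched by Rogdi, Lpcat3 and Mrs2 for Tnfrsf1a (0.0519 to 0.0753), by Gcdh, Capza1 and Mfsd13a for Tnfrsf1b (0.0597 to 0.0713) and by Tspy-ps, Cept1 and Aifm3 for Ltbr (0.125 to 0.127).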

How the data were processed

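The deposited series table holds 45101 probe sets on 11 arrays, with values from 0 to 4.56. Per the submitters' processing notes the authors used Affymetrix Expression Console; the log base and the summarization method are not given in the sources used here. The deposited values were taken as log10, from the hybridization controls, which rose by 0.943, 1.02 and 1.77 per unit of log10 of their nominal concentration, so the base is an inference. All 11 columns held the same sorted values, as after quantile normalization by the authors, and were multiplied by 3.32 to give log2. The number of arrays limits the precision.

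Probe sets were named through GEO's platform annotation: after 64 controls, 34945 had 1 symbol, 932 several and 9160 were not listed, and 34741 gene identifiers were found in the RefSeq gene table, with 0 symbols changed. Each gene was read from its probe set of highest mean. All 4 groups were fitted in limma 3.58.1 (R 4.3.3) with empirical Bayes, with 7 residual degrees of freedom, and p-values were adjusted by Benjamini-Hochberg over 14795 genes, with a threshold of 0.05. The fit was tested on simulated data.

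Replicates were independent experiments, per the labels, whose number pairs the arrays. The main fit had no block for experiment, so its p-values do not use this pairing. Deviations from group means correlated by -0.0716 to 0.112 between arrays of the same experiment and by -0.131 to 0.112 between others. These deviations are from means of 2 or 3 arrays, so they cannot show whether the pairing matters. Alternatives were an experiment block, another prior, stricter and no filters, the mean of a gene's probe sets, only the compared groups in the fit, scaling to controls, array weights, experiments 1 and 2 only, and leaving out each array.

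All 6 genes were named, and of each list the 2 largest increases and decreases past the threshold, any locus neighbour, and the 3 genes most like each member. The members and lists were chosen with earlier results of these data known.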

Additional observations from a re-analysis of the deposited data

Results flagged for a closer look

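The response to stimulation differed between naive-derived and memory-derived cells for Ltb and for Tnf, in a test of the difference itself. For Ltb the stimulation difference in naive-derived cells minus that in memory-derived cells was 2.95 (log2, limma adjusted p = 0.0166), and the separate differences were -0.98 in naive-derived and -3.93 in memory-derived cells. For Tnf it was -2.77 (limma adjusted p = 0.0301), and the separate differences were 1.44 in naive-derived and 4.20 in memory-derived cells. The call for Ltb was kept in 17 of 20 alternatives (adjusted p of 0.00223 to 0.0827) and that for Tnf in 9 of 20 (adjusted p of 0.0078 to 0.131). The Il2 level and the 3' minus 5' actin signal also differed between the unstimulated groups, at 11.04 to 12.18 and 1.54 to 1.59 in naive-derived and 2.32 to 4.96 and 0.875 to 1.17 in memory-derived cells, and their part in the result was not tested.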

How the results depend on the processing

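Of the comparisons of the 6 genes over 21 alternative settings, 691 values kept their direction and their side of the threshold, 13 newly passed it, 17 no longer passed and 11 changed sign. The number of the 6 genes past the threshold, 3 upon stimulation of memory-derived cells, was 3 to 4 when 1 array was left out. In naive-derived cells it was 0 to 0. Between unstimulated origins (2) it was 4 with the stricter filter and 2 to 3 with 1 array left out, and between stimulated origins (0) it was 1 with the replicate block, 1 with a trended robust prior and 0 to 1 with 1 array left out. Between naive-derived unstimulated and memory-derived stimulated cells (1) it was 2 when scaled to the hybridization controls, 2 with array weights and 0 to 1 with 1 array left out. For the difference between origins (2) it was 1 with the replicate block, 0 with that block within each origin, 0 with experiments 1 and 2 only, and 0 to 3 with 1 array left out. The replicate block changed no other call of the 6 genes. Between unstimulated origins Lta also passed when scaled to the controls (limma adjusted p = 0.0369) and with array weights (limma adjusted p = 0.00903). Tnfrsf1b also passed there with the trended robust prior (limma adjusted p = 0.0396). The Tnfrsf1b decrease in memory-derived cells was lost when scaled to the controls (-0.57, adjusted p = 0.0528) and with experiments 1 and 2 only (-0.45, adjusted p = 0.100). The values that changed sign did not pass either way: Tnf between stimulated origins was -0.00865 when scaled to the controls, -0.0277 with experiments 1 and 2 only and -0.213 to 0.317 with 1 array left out. Tnfrsf1a in memory-derived cells was 0.00735 with experiments 1 and 2 only. With 1 array left out, Tnfrsf1a was -0.0429 to 0.0564 in memory-derived cells, -0.230 to 0.0681 in naive-derived cells and -0.227 to 0.0716 for the difference between origins. Between naive-derived unstimulated and memory-derived stimulated cells, Ltbr was then -0.0300 to 0.295 and Tnfrsf1b -0.0494 to 0.304. Over all genes the counts ranged over the alternatives from 2755 to 5696 upon stimulation of memory-derived cells (4675 as reported), 0 to 13 in naive-derived cells (2), 1843 to 4784 between unstimulated origins (3819), 258 to 809 between stimulated origins (548), 92 to 592 between naive-derived unstimulated and memory-derived stimulated cells (273), and 0 to 1505 for the difference between origins (401). With the replicate block limma called 26 genes for the last, and with the block within each origin 0, where 3499 had an unadjusted p below 0.05. Most fits that left out 1 array of a compared group also called fewer of all genes, so calls lost there came with fewer calls over all genes. The causes were not tested.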
